A study of Mus musculus with 2 samples.

Results

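Ifit1, Ifit2, Ifit3, Ifit3b, Isg15, Usp18, Rsad2 and Cmpk2 are 8 genes of the antiviral programme that interferon turns on in nearly every cell type. They were taken by symbol, each matched 1 of the 32285 features in the files, and their UMIs (unique molecular identifiers, each counting 1 captured transcript) were read from single cells of MC38 tumors. MC38 is a mouse colon adenocarcinoma line, grown here under the skin of C57BL/6 mice aged 6 to 8 weeks. The tumors were injected either with saline holding 10% DMSO, the group called untreated, or with MSA-2, a small-molecule agonist of STING, in 3 doses at intervals of 3 days, and were collected on day 7. The tumors of 3 mice were pooled into 1 10x Chromium 3′ library for each group. There are therefore no replicates and no test between the groups, and every 95% interval given covers counting error only. The untreated library held 14386 barcodes with 198135335 UMIs and the MSA-2 library 14617 barcodes with 204387165 UMIs, and 53 barcodes occurred in both. After the filters and the removal of called doublets, 13349 untreated cells with a median of 8303 UMIs and 13311 MSA-2 cells with a median of 9202 UMIs were compared.

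STING is the membrane adaptor that relays the alarm raised by DNA in the cytosol: it activates the transcription factor IRF3, which turns on interferon beta and also some of the genes described here. Secreted interferon binds its receptor on the same and on neighbouring cells, which then switch on many interferon-stimulated genes, in tumors as in infected tissue. The IFIT proteins bind viral RNA and block its translation, ISG15 is a ubiquitin-like protein attached to other proteins, USP18 removes ISG15 and also damps the interferon receptor, viperin (encoded by Rsad2) turns CTP into a chain-terminating nucleotide, and CMPK2 is a mitochondrial nucleotide kinase.

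The 8 genes lie at 4 places in the genome (build GRCm38). Ifit2, Ifit3, Ifit3b and Ifit1 lie in this order on the plus strand of chr19:34550694-34650009, a stretch of 99316 bases whose 6 protein-coding genes all belong to the Ifit family, the other 2 being Ifit1bl1 and Ifit1bl2. Rsad2, at chr12:26442746-26456452 on the minus strand, and Cmpk2, at chr12:26469204-26479837 on the plus strand, are neighbours whose starts lie 12752 bases apart and point away from each other. Isg15 lies at chr4:156199424-156200818 on the minus strand and Usp18 at chr6:121245906-121270917 on the plus strand. Usp18 overlaps Gm44148, an annotated gene on the opposite strand, so reads from the overlap can be told apart only by strand. Ifit3 and Ifit3b are near copies: their transcripts share 81.7% of aligned bases, and 35.1% of all 90-base windows of Ifit3 also occur in Ifit3b. How UMIs were split between this pair is therefore uncertain, while no 90-base window of Ifit3 was found in the transcripts of Ifit1 or Ifit2.

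Because the 8 genes moved together, their promoters are shown. The interferon-stimulated response element, the DNA site through which interferon acts on many of its genes, was searched for in its short form GAAANNGAAA on both strands, from 250 bases before to 50 bases after each start (RefSeq, GRCm38.p6). RefSeq entries were matched for 7 members, and 5 of them (71.4%) held the motif: Ifit1, Ifit3, Ifit3b, Isg15 and Rsad2. Counted in the same way by gene, the letters occurred in 1079 of all 27025 genes (3.99%, and in 3.44% of all 32851 promoters) and in 16 of 38 genes of a wider interferon list (42.1%). For Ifit2, with 2 starts, and Cmpk2, these letters were not in this window. The stretches from 200 to 51 bases before the start are printed 5′ to 3′ on the gene's own strand, with capitals for the motif or its reverse complement. They are chr19:34640689-34640838 (plus strand) for Ifit1, chr19:34583329-34583478 (plus) for Ifit3, chr19:34607757-34607906 (plus) for Ifit3b, chr4:156200869-156201018 (minus) for Isg15 and chr12:26456503-26456652 (minus) for Rsad2. Ifit1, Ifit3 and Ifit3b each hold 2 separate matches that read on the opposite strand, Isg15 holds 3 matches that overlap on its own strand, and Rsad2 holds 1 match on the opposite strand. The promoters of Ifit3 and Ifit3b are themselves copies, with 78.0% of aligned bases shared. A match describes the sequence and was not tested as a binding site.
Ifit1: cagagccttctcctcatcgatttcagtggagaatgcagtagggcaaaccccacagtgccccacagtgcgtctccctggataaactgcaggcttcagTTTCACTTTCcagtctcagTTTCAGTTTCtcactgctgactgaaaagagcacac
Ifit3: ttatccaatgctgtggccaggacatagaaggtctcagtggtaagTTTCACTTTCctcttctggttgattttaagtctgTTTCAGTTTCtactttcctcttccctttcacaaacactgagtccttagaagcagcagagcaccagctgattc
Ifit3b: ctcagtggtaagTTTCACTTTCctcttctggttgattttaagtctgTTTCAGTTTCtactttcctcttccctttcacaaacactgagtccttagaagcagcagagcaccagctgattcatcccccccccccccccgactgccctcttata
Isg15: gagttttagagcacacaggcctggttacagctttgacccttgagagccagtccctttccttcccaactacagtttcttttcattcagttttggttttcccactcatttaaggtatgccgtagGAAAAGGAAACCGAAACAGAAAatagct
Rsad2: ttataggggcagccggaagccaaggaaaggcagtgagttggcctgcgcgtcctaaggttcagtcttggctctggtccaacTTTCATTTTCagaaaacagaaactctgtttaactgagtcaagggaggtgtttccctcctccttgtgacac

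**Figure D1:**
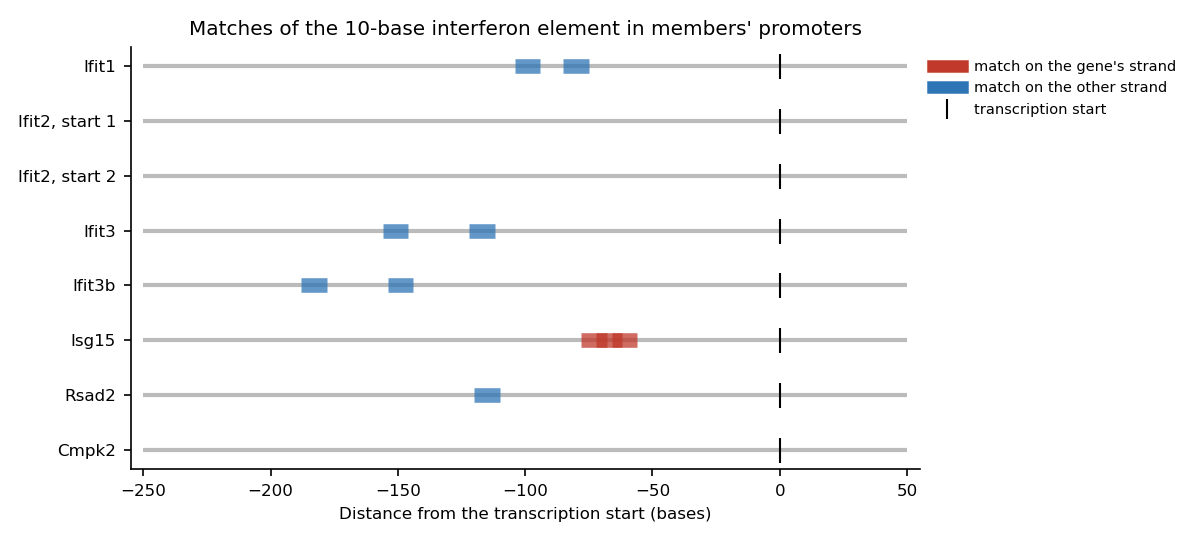
Positions of the motif in the promoters of 7 members, in bases from the transcription start (x axis), with 1 line for each annotated start; red boxes are matches on the gene's strand and blue boxes matches on the other strand. Matches lie before the start in 5 members and are missing from both Ifit2 starts and from Cmpk2.

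Cells were assigned to classes by marker genes that include none of the 8 members. The largest class expressed Col3a1, Dcn or Serpinf1 with little Col1a1 and Col1a2, and made up 46.0% of all cells in untreated tumors (6139) and 50.9% after MSA-2 (6781). The samples are labelled as tumor cells of the MC38 line. However, the 8 epithelial markers looked for (Krt8, Krt18, Krt19, Krt7, Epcam, Cldn4, Cldn7 and Perp) summed to only 1.21 CPM (UMIs per 1000000 UMIs of the class) in this class of the untreated library and 0.57 CPM in the MSA-2 library. Krt7 was the most abundant of them in untreated cells at 0.674 CPM, Krt8 in MSA-2 cells at 0.261 CPM, and Cldn4 had 0 UMIs in the MSA-2 cells. The class is therefore called Col1-low non-immune, and its leading genes were Pcdh9, Gng11, H19, Rhox5 and Phgdh. The methods call the retained cells immune cells, whereas Ptprc, the pan-leukocyte gene, stood at only 14.4 and 9.74 CPM in this class. The class may hold the MC38 cells, and this was not tested. The other classes with at least 50 cells in each library were macrophage-like (gated by genes such as C1qa and Apoe, 4148 untreated and 1443 MSA-2 cells), monocyte-like (Ccr2 and Chil3, 141 and 552), T-like (Cd3e and Trac, 1134 and 141), NK-like (Ncr1 and Eomes, 194 and 87), fibroblast-like (Col1a1 and Col1a2, 190 and 643) and endothelial-like cells (Pecam1 and Cdh5, 58 and 73). No gate was passed by 951 untreated (7.12%) and 1278 MSA-2 cells (9.60%), and several gates by 151 (1.13%) and 59 (0.443%).

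All 8 genes were higher in the MSA-2 library in each of the 7 classes, with every interval of the ratio above 0 on the log2 scale. Over all cells their summed level went from 1064 CPM to 3980.2 CPM, a log2 ratio of 1.90 (1.90 to 1.91). Monocyte-like cells had the largest ratio, 4.10 (3.98 to 4.22), from 1017 to 17397 CPM, followed by endothelial-like cells with 3.84 (3.69 to 4.004), from 629 to 9028 CPM. The place of monocyte-like cells rests on their gate, which limits Col3a1, Dcn and Serpinf1: without this limit their ratio was 2.93. Fibroblast-like cells went from 891 to 7705 CPM, a log2 ratio of 3.11 (3.05 to 3.18), and T-like cells from 901 to 7194 CPM, a ratio of 3.00 (2.94 to 3.06). The smallest ratios were those of macrophage-like cells, which started highest (2787 to 12148 CPM, 2.12, 2.11 to 2.14), of Col1-low non-immune cells (777 to 2755 CPM, 1.83, 1.82 to 1.84) and of NK-like cells (977 to 3442 CPM, 1.82, 1.71 to 1.92). At least a 2-fold rise, with 1 CPM added to both values, was met by 8 of 8 members over all cells, where 2.77% of all tested genes met it. It was met by 8 of 8 members in the macrophage-like (5.56% of all genes), monocyte-like (13.7%), T-like (5.94%), NK-like (6.71%), fibroblast-like (7.56%) and endothelial-like cells (7.79%). In Col1-low non-immune cells 7 of 8 members met it, beside 2.52% of all genes, and Isg15 did not. Where at least 50 UMIs of a gene were required, 6 members passed in NK-like cells, beside 3.87% of all genes. Ifit3b (8 and 36 UMIs) and Cmpk2 (8 and 30 UMIs) were too sparse there. In T-like cells 8 of 8 members still passed, beside 3.86% of all genes. No member was 2-fold lower in any class, and 1.53% of all genes were so in the non-immune and 3.26% in the macrophage-like class.

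**Figure D2:**
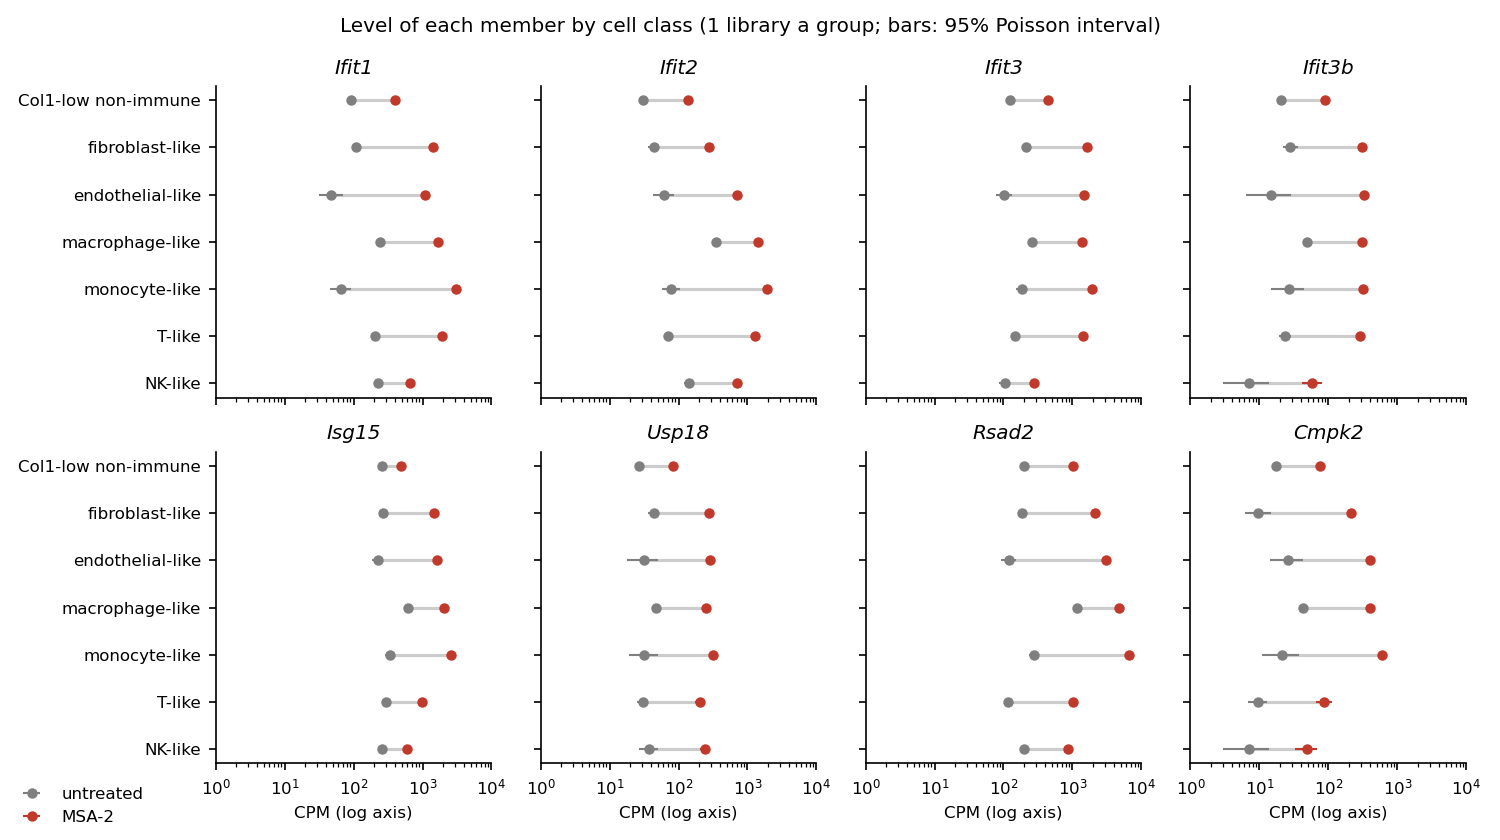
Level of each member in each class, in CPM on a log axis, for the untreated (grey) and the MSA-2 library (red), with 95% Poisson intervals as bars, which are often smaller than the points. The red point lies to the right of the grey point for every gene and class, and the gap is narrowest for Isg15.

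The order of the classes differed between the libraries. In the untreated library macrophage-like cells stood far above the others, and monocyte-like, NK-like, T-like and fibroblast-like cells followed with intervals that overlapped from each class to the next (935 to 1104 CPM for monocyte-like and 853 to 929 CPM for fibroblast-like cells). Col1-low non-immune (772 to 781 CPM) and endothelial-like cells (564 to 699 CPM) were lowest. In the MSA-2 library no neighbouring intervals overlapped, and the order was monocyte-like, macrophage-like, endothelial-like, fibroblast-like, T-like, NK-like and Col1-low non-immune. The cells behind a class can differ between the libraries. When all cells were clustered without interferon-stimulated genes, untreated macrophage-like cells lay mostly in clusters 3 (54.2%) and 5 (37.3%), and those of the MSA-2 library in clusters 6 (74.0%) and 4 (16.8%). Monocyte-like cells lay in cluster 5 (96.5%) and in cluster 6 (92.9%), and Col1-low non-immune cells in clusters 0, 2 and 1 against clusters 7, 15 and 16. Fibroblast-like, endothelial-like, NK-like and T-like cells had the same main cluster in both libraries (14, 17, 9 and 10). In all, 12 of 22 clusters drew over 95% of their cells from 1 library. Markers of monocyte-like cells differed too: Ccr2 went from 404 CPM in the untreated to 128 CPM in the MSA-2 library. S100a8, a neutrophil gene outside the gate, went from 17.8 to 1692 CPM in them. Chil3 (1605 and 1444 CPM) and Ly6c2 (1314 and 1451 CPM) differed less. Whether a class changed its state or its make-up cannot be told apart here.

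Ifit1, which binds viral RNA whose cap lacks methylation, differed widely between classes. It went from 65.8 to 3099 CPM in monocyte-like cells, a log2 ratio of 5.56 (5.09 to 6.07) that rests on 37 untreated UMIs and on the gate with its limit on Col3a1, Dcn and Serpinf1. In NK-like cells it went only from 223 to 659 CPM, a ratio of 1.56 (1.34 to 1.80). Ifit2, its close relative, was already at 355 CPM in untreated macrophage-like cells and reached 1404 CPM, a ratio of 1.98 (1.94 to 2.03), while in T-like cells it went from 70.9 to 1267 CPM, a ratio of 4.16 (3.97 to 4.35). Ifit2 was thus the member with the largest ratio in T-like cells and nearly the smallest in macrophage-like cells. Ifit3 had ratios from 1.43 (1.08 to 1.78) in NK-like to 3.86 (3.47 to 4.27) in endothelial-like cells, where it went from 103 to 1485 CPM. Ifit3b stayed far below Ifit3 in every class, with 128 against 630 CPM over all MSA-2 cells. Ifit3 had 6.01 UMIs (5.82 to 6.21) for each Ifit3b UMI in all untreated cells and 4.94 (4.87 to 5.004) in all MSA-2 cells, a proportion that depends on how UMIs of these near copies were assigned. In Col1-low non-immune cells Ifit1 went from 91.9 to 400 CPM, Ifit2 from 30.1 to 139 CPM, Ifit3 from 126 to 445 CPM and Ifit3b from 20.4 to 88.9 CPM.

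Isg15 moved least. Its log2 ratio was the smallest of the 8 in each of the 7 classes, from 0.90 (0.88 to 0.92) in Col1-low non-immune cells, where it went from 263 to 489 CPM, to 2.97 (2.76 to 3.19) in monocyte-like cells, where it went from 334 to 2617 CPM. Its interval lay apart from all others only in Col1-low non-immune, macrophage-like and T-like cells. In NK-like cells it overlapped those of Ifit3 (1.08 to 1.78) and Ifit1 (1.34 to 1.80). In fibroblast-like, endothelial-like and monocyte-like cells it overlapped those of other members, such as Ifit2, Ifit2 and Ifit3. Isg15 was also among the most abundant members before treatment, with 313 CPM over all untreated cells. Isg15 thus fell from 29.4% (29.2 to 29.6%) of all member UMIs in the untreated library to 18.1% (18.0 to 18.1%) in the MSA-2 library. Usp18, which strips ISG15 from proteins and restrains the receptor, stood far lower, at 30.2 CPM over all untreated and 119 CPM over all MSA-2 cells. Its ratio ranged from 1.61 (1.56 to 1.66) in Col1-low non-immune cells to 3.32 (2.64 to 4.08) in monocyte-like cells, and exceeded that of Isg15 in all 7 classes, though the intervals overlapped in monocyte-like, endothelial-like and fibroblast-like cells. In NK-like cells Usp18 went from 37.4 to 246 CPM, a ratio of 2.71 (2.22 to 3.24), beside 1.23 (1.01 to 1.46) for Isg15 in the same cells.

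Rsad2 held more UMIs than any other member in both libraries, with 334 CPM over all untreated and 1429 CPM over all MSA-2 cells. Reads of this chemistry start at the 3′ end, so levels of different genes were compared as UMIs without a correction for length. It went from 1182 to 4678 CPM in macrophage-like cells, a log2 ratio of 1.99 (1.96 to 2.01), and from 276 to 6600.3 CPM in monocyte-like cells, a ratio of 4.58 (4.35 to 4.82). In endothelial-like cells it went from 119 to 3095 CPM, a ratio of 4.70 (4.34 to 5.08). Cmpk2, the neighbour of Rsad2, was the least abundant member over all cells, with 20.5 CPM in untreated tumors and 113 CPM after MSA-2. Its ratio was the largest of the 8 in macrophage-like cells, 3.22 (3.11 to 3.32), from 42.5 to 396 CPM, and it was 4.47 (3.88 to 5.14) in fibroblast-like cells, from 9.66 to 215 CPM. The neighbours were therefore not raised in step in macrophage-like cells: Rsad2 had 27.8 UMIs (26.1 to 29.6) for each Cmpk2 UMI in the untreated and 11.8 (11.4 to 12.3) in the MSA-2 library. In Col1-low non-immune cells this proportion was 11.5 (11.0 to 11.98) and 13.6 (13.3 to 13.8).

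T-like cells differed from the rest in the make-up of the response. T-like cells had fewer UMIs of Rsad2 than of Ifit1 in both libraries, 0.564 (0.504 to 0.631) for each Ifit1 UMI in the untreated and 0.546 (0.498 to 0.599) in the MSA-2 library. Macrophage-like cells had 4.93 (4.80 to 5.08) and 2.79 (2.74 to 2.85), and Col1-low non-immune cells 2.19 (2.14 to 2.23) and 2.59 (2.56 to 2.61). The IFIT genes therefore led in T-like cells of the MSA-2 library, where Ifit1, Ifit3 and Ifit2 held 26.3%, 19.7% and 17.6% of member UMIs and Rsad2 14.4%. NK-like cells lay between, with 0.895 (0.745 to 1.07) and 1.29 (1.14 to 1.48) Rsad2 UMIs for each Ifit1 UMI. In the other 6 classes Rsad2 held the largest share of member UMIs after MSA-2, from 24.8% (22.97 to 26.7%) in NK-like to 38.5% (38.2 to 38.8%) in macrophage-like cells.

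**Figure D3:**
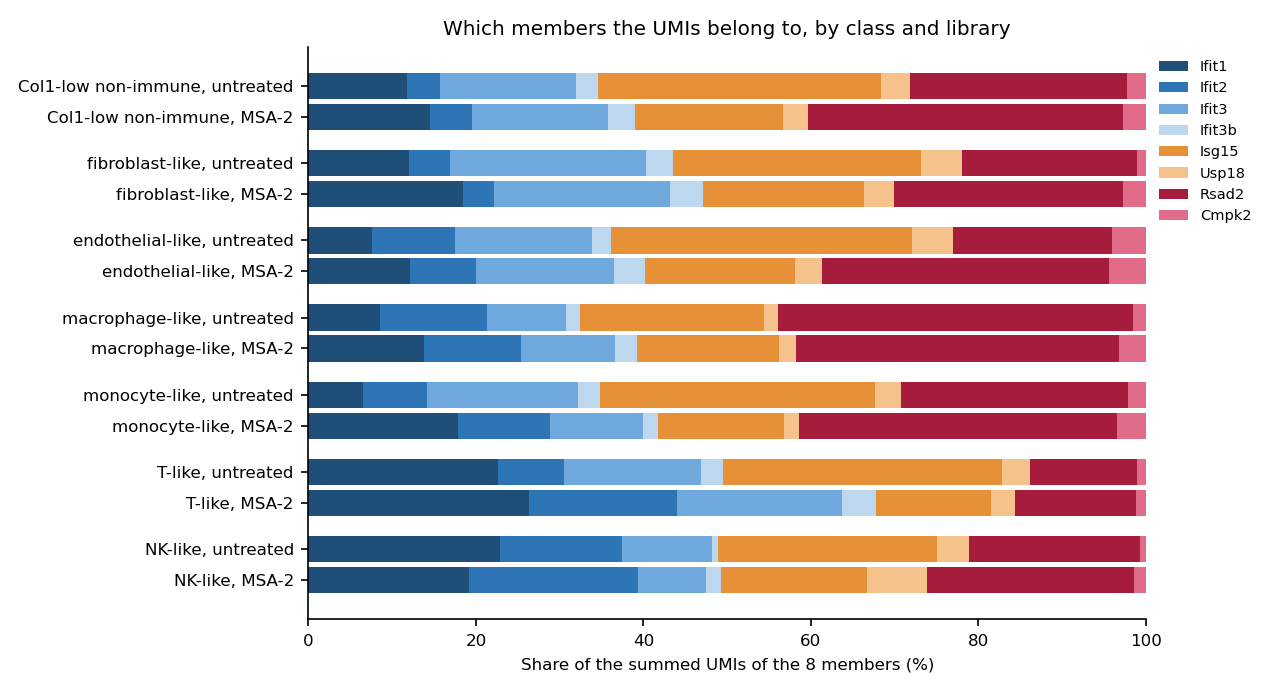
Share of the summed UMIs of the 8 members that belongs to each member (x axis, percent), by class and library. The orange Isg15 part is narrower in the MSA-2 bar of each class, and the dark red Rsad2 part is smallest in T-like cells.

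More cells responded after MSA-2, and each responding cell held more UMIs. A cell was counted as responding to a gene when at least 1 UMI of it remained after every cell had been thinned to 1000 UMIs, since deeper cells show more genes. For the 8 members together, the share of responding cells went from 68.1% (66.6 to 69.5%) to 98.7% (98.0 to 99.2%) in macrophage-like cells, and their mean UMIs per responding cell from 4.29 to 13.2. In Col1-low non-immune cells the share went from 43.0% (41.8 to 44.3%) to 82.0% (81.1 to 82.9%) and the level from 2.25 to 4.12. Since the ratio of means is the product of both, the log2 ratio splits into a part for the share and a part for the level. These parts were 0.54 (0.50 to 0.58) and 1.62 (1.59 to 1.66) in macrophage-like cells, where most cells had already responded, and 0.93 (0.87 to 0.99) and 0.87 (0.83 to 0.91) in Col1-low non-immune cells. In monocyte-like cells the share went from 42.0% (33.7 to 50.7%) to 98.9% (97.6 to 99.6%) and the level from 2.19 to 18.2, and in T-like cells the share from 42.4% (39.5 to 45.3%) to 97.9% (93.9 to 99.6%) and the level from 2.73 to 8.48. NK-like cells went from 49.5% (42.3 to 56.7%) to 90.8% (82.7 to 95.95%) and from 2.06 to 3.39. The rise in level of NK-like cells was lost under stricter definitions of responding. Its log2 ratio was 0.15 (-0.15 to 0.45) for at least 2 UMIs and 0.13 (-0.18 to 0.46) for at least 2 members. In fibroblast-like cells the share went from 33.0% (26.3 to 40.2%) to 97.8% (96.3 to 98.8%) and the level from 2.39 to 8.62, and in endothelial-like cells from 44.8% (31.7 to 58.5%) to all 71 cells (94.9 to 100%) and from 1.54 to 10.01.

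This split belongs to the chosen depth. At 2000 UMIs the share part fell to 0.33 in macrophage-like and 0.62 in Col1-low non-immune cells, and at 500 UMIs it was 0.86 and 1.20. Without thinning, 91.6% of untreated and 99.9% of MSA-2 macrophage-like cells, and 98.3% and 99.9% of Col1-low non-immune cells, had a member UMI, at median depths of 5342.5 and 4329 UMIs and of 20664 and 19973 UMIs. The unthinned shares were 70.9% and 99.8% in monocyte-like, 71.1% and 100% in T-like (median depths 3191.5 and 3840 UMIs), 84.0% and 100% in NK-like (5402 and 6479), 89.5% and 100% in fibroblast-like (11741 and 13176) and 86.2% and 98.6% in endothelial-like cells (7398.5 and 8467). Such a UMI need not be the cell's own: C1qa, a macrophage gene, had at least 1 UMI in 5367 of 6139 untreated and 3620 of 6781 MSA-2 Col1-low non-immune cells. Unthinned shares in so deep a class therefore do not tell which cells made the transcripts. As a further gauge, S100a9, a neutrophil gene that these cells should lack, was found in 0.114% of thinned Col1-low non-immune cells of the untreated library and in 18.0% of those of the MSA-2 library (1.35% and 92.4% unthinned), though with only 21 neutrophil-like cells the untreated library held little of it. In macrophage-like cells this gauge was 0.0741% and 21.8%. Thinning left out cells under 1000 UMIs, which were 4 and 9 Col1-low non-immune, 98 and 31 macrophage-like and 3 and 14 monocyte-like cells.

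For single members the share could be read more often than the level. Rsad2 was found in 43.9% (42.3 to 45.4%) of untreated and 92.8% (91.4 to 94.1%) of MSA-2 macrophage-like cells, with 2.77 and 5.44 mean UMIs per responding cell. In monocyte-like cells it was found in 15.2% (9.67 to 22.3%) and 93.9% (91.5 to 95.7%), with 1.71 and 7.19 UMIs. Without thinning these shares were 68.5% and 98.7% in macrophage-like cells and 39.0% and 98.0% in monocyte-like cells, whose median depth was 3458 and 3537.5 UMIs. In Col1-low non-immune cells its share went from 14.03% (13.2 to 14.9%) to 48.8% (47.6 to 50.02%) and its level from 1.82 to 2.73. After thinning, Rsad2 was therefore found in more cells, and at a higher level per responding cell, in these 3 classes. The gain in cells may not hold at the full depth of Col1-low non-immune cells. There the log2 ratio of the share for all members together was 0.93 after thinning and 0.024 without thinning. Ifit1 in Col1-low non-immune cells went from 8.43% (7.74 to 9.15%) to 31.1% (29.997 to 32.2%) of cells, with levels of 1.42 and 1.57 UMIs, which lie too close to 1 UMI to read a change. In T-like cells Ifit1 went from 15.3% (13.3 to 17.6%) to 76.4% (68.5 to 83.2%) and from 1.64 to 3.10 UMIs, above the 52.1% (43.5 to 60.7%) of T-like cells with Rsad2 in the MSA-2 library. For Usp18, Ifit3b and Cmpk2 the level per responding cell was at most 1.66 UMIs in each of the 7 classes of both libraries, so only the share can be read. Usp18 went from 2.97% (2.56 to 3.42%) to 8.20% (7.55 to 8.87%) of Col1-low non-immune cells and from 4.44% (3.83 to 5.13%) to 20.6% (18.5 to 22.8%) of macrophage-like cells. At this depth no Ifit1 UMI was left in the 58 untreated endothelial-like cells (0, which allows up to 5.17% of cells with a UMI at this depth), against 53.5% (41.3 to 65.5%) of those of the MSA-2 library. Without thinning 29.3% and 90.4% of these cells had Ifit1.

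**Figure D4:**
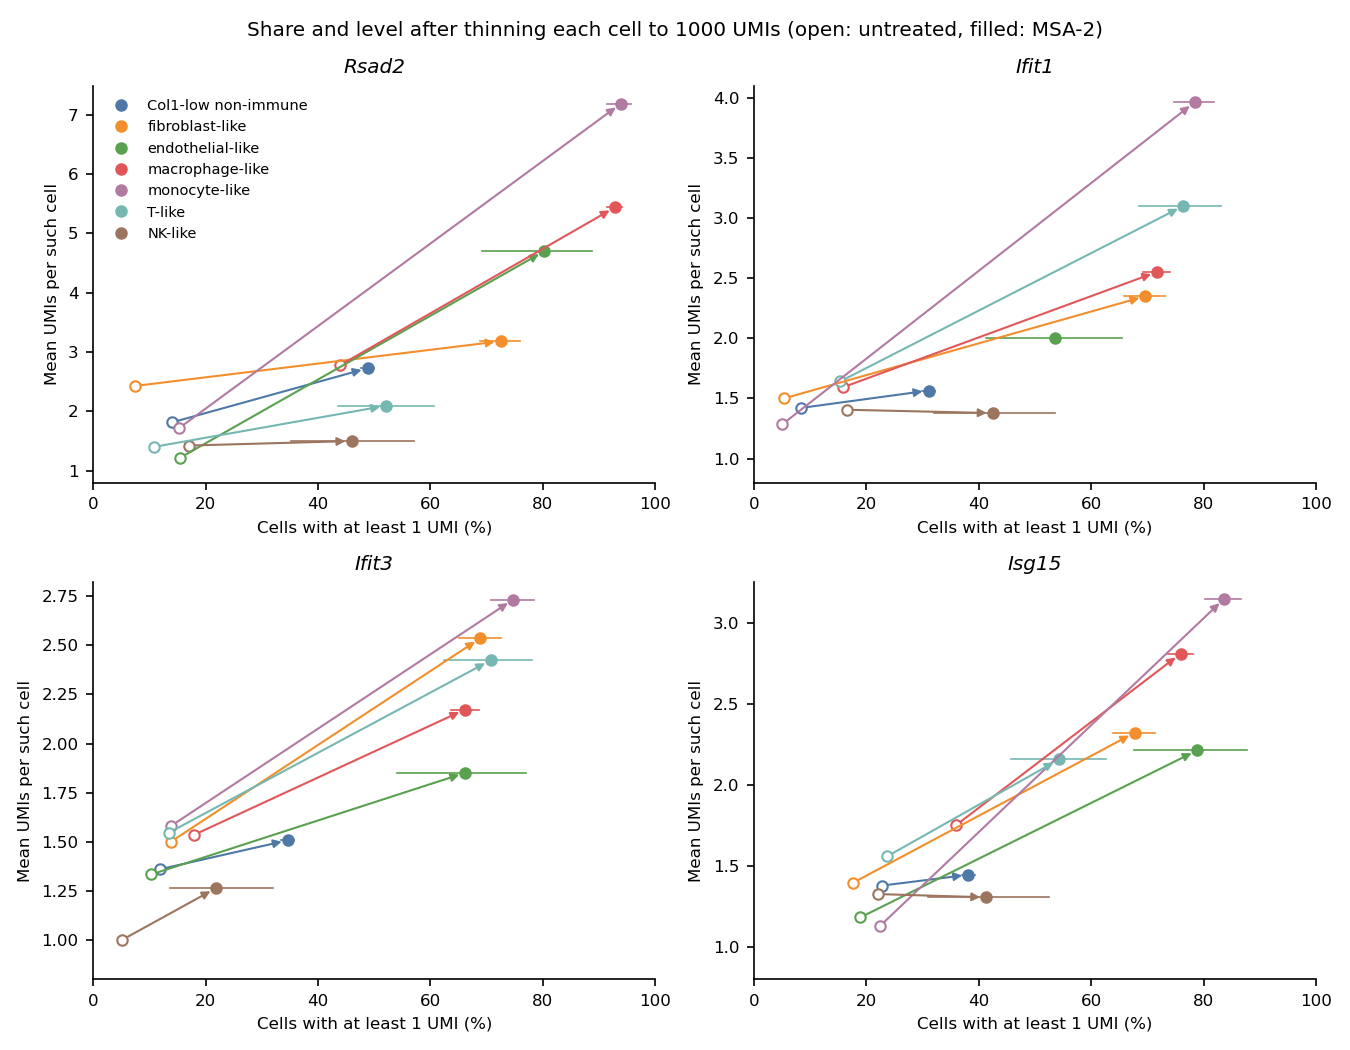
Share of cells with at least 1 UMI (x axis, percent) against mean UMIs per such cell (y axis) for Rsad2, Ifit1, Ifit3 and Isg15 after thinning to 1000 UMIs; arrows run from the untreated (open) to the MSA-2 point (filled) of each class, and bars are 95% Clopper-Pearson intervals of the MSA-2 share. Arrows of monocyte-like cells end highest, and those of NK-like and Col1-low non-immune cells stay low.

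MSA-2 cells also showed more of the 8 genes at once at this depth. At 1000 UMIs per cell, 88.3% (86.5 to 89.9%) of macrophage-like, 92.9% (90.4 to 94.95%) of monocyte-like and 72.9% (64.7 to 80.0%) of T-like cells of the MSA-2 library had UMIs of at least 3 members. The same was true of 22.1% (20.9 to 23.5%), 5.07% (2.06 to 10.2%) and 9.22% (7.60 to 11.1%) of the untreated cells. In Col1-low non-immune cells this share went from 6.13% (5.54 to 6.76%) to 31.0% (29.9 to 32.1%), and in fibroblast-like cells from 4.79% (2.21 to 8.89%) to 71.7% (68.0 to 75.2%). NK-like cells went from 7.73% (4.39 to 12.4%) to 40.2% (29.9 to 51.3%). These counts follow the summed level and the depth of 1000 UMIs, and no other depth was run for them. Most untreated responding cells had a single member in the 6 compared classes other than macrophage-like at this depth, such as 1727 of 2639 Col1-low non-immune and 266 of 478 T-like cells. Of the untreated macrophage-like cells with Rsad2, 26.9% had Ifit1 and 34.2% had Ifit2, against 7.17% and 11.5% of those without Rsad2. In T-like cells with and without Rsad2 these shares were 40.2% and 12.3% for Ifit1. In MSA-2 macrophage-like cells they were 74.1% and 40.6%, and in MSA-2 T-like cells 80.8% (69.9 to 89.1%) and 71.6% (59.3 to 82.0%), whose intervals overlap. In MSA-2 NK-like cells the values for Ifit2 ran the other way, 30% (16.6 to 46.5%) of 40 cells with and 46.8% (32.1 to 61.9%) of 47 without Rsad2, also with intervals that overlap. Those for Ifit3 did so too, 17.5% (7.34 to 32.8%) with and 25.5% (13.9 to 40.4%) without Rsad2. Ifit1, Ifit3b, Isg15, Usp18 and Cmpk2 were higher with Rsad2 in these cells, but the intervals of each overlapped. For Isg15 the shares were 42.5% (27.0 to 59.1%) with and 40.4% (26.4 to 55.7%) without Rsad2.

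**Figure D5:**
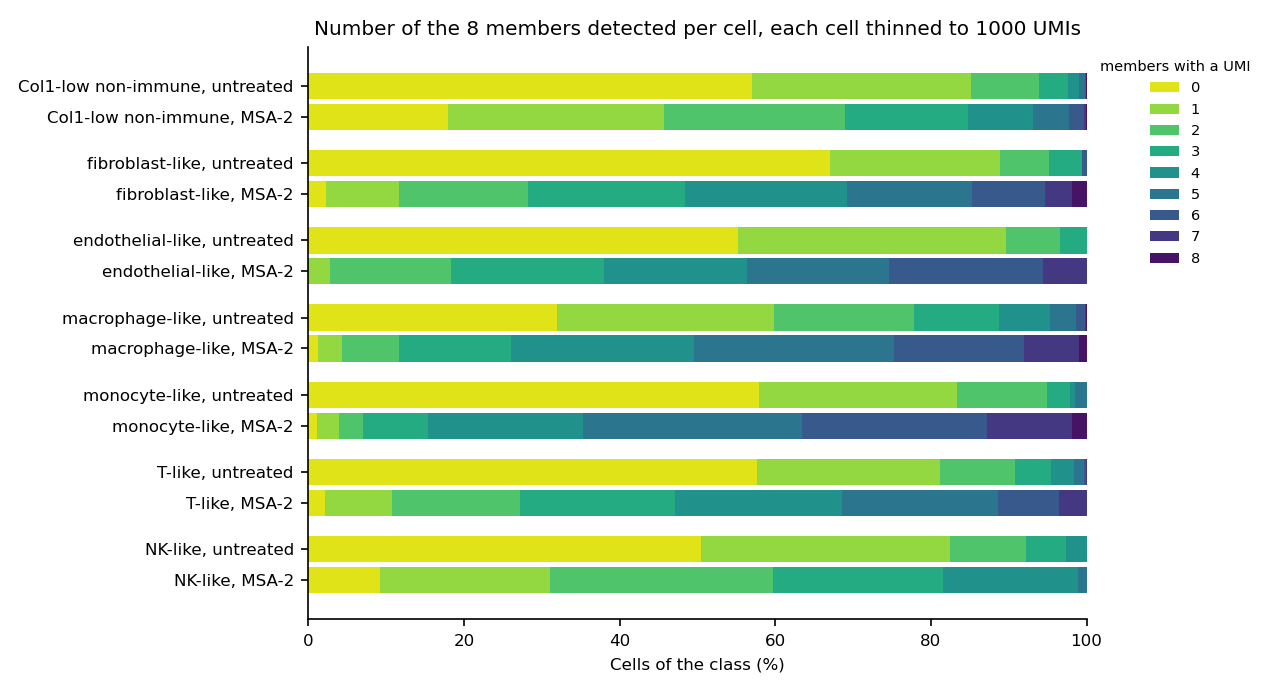
Share of cells (x axis, percent) by the number of members with a UMI, from 0 (yellow) to 8 (dark), after thinning each cell to 1000 UMIs, for each class and library. The yellow part, cells with no member, is smaller in the MSA-2 bar of every class.

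The spread between cells was wide in both libraries. Among Col1-low non-immune cells with at least 10000 UMIs, the median cell held 409 CPM of the 8 members in the untreated library (5247 cells) and 1880.5 CPM in the MSA-2 library (5638 cells). The 90th and 10th percentiles were 1763 and 135 CPM in the untreated and 6395 and 741 CPM in the MSA-2 library, a ratio of 13.1 and of 8.63. Both ratios include counting error, which weighs more at low levels, so they were not compared. Of the untreated cells 9.28% lay above the MSA-2 median, while 1.14% of MSA-2 cells lay below the untreated median. In this class the whole distribution thus lay higher after MSA-2, with an upper tail already present in untreated tumors. Fibroblast-like cells overlapped less: 1.64% of 122 untreated cells lay above the MSA-2 median of 6562 CPM, and none of 444 MSA-2 cells (0, which allows up to 0.676%) lay below the untreated median of 302 CPM. After thinning, the 10% of untreated Col1-low non-immune cells with the most member UMIs held 57.4% of them, and the top 10% of MSA-2 cells held 41.8%. Counting alone makes such a share fall as the mean rises, here from 0.969 to 3.38 UMIs per cell. The share expected from counting was not worked out, so no change in concentration can be read. The variances of these counts, 4.71 and 20.7, were above the means, to which counting alone would make them equal.

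Most member UMIs came from the Col1-low non-immune cells, which are both numerous and deep: 56.0% of the members' UMIs in untreated tumors and 57.4% after MSA-2, beside 76.7% and 82.9% of all UMIs. Macrophage-like cells gave 33.7% and 11.2%, with 12.9% and 3.68% of all UMIs and 31.1% and 10.8% of all cells. Neutrophil-like cells gave 0.0578% and 9.71%, beside 0.0140% and 2.36% of all UMIs. Fibroblast-like cells gave 1.09% and 9.60%, beside 1.30% and 4.96% of all UMIs. The methods state that cells were sorted, without naming a gate, so shares of cells may be set by it. The 2206 neutrophil-like cells of the MSA-2 library were at 16352 CPM of the 8 members (16234 to 16471), of which Rsad2 made up 5269.6 CPM (5203 to 5337) and Isg15 3483 CPM (3429 to 3538). The untreated library had only 21 such cells, at 4382 CPM (3611 to 5268), and no comparison was drawn. DC-like cells were at 1551 CPM (1487 to 1616, 181 cells) in untreated tumors and at 7252 CPM (6841 to 7682, 23 cells) after MSA-2. No comparison was drawn between these either, since the cells behind the name differ: medians per 10000 UMIs went from 6.87 to 0 for cDC2 markers and from 6.88 to 30.8 for mregDC markers, and Rhox5 stood at 18.5% and 48.2% of its home level.

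Ifnb1, the interferon beta gene that STING and IRF3 turn on, was found after thinning in 7.46% (6.67 to 8.31%) of untreated and 50.9% (48.2 to 53.5%) of MSA-2 macrophage-like cells. It was found in 65.8% (61.6 to 69.8%) of MSA-2 monocyte-like cells, but in 2.61% (2.25 to 3.02%) of MSA-2 Col1-low non-immune cells and 2.14% (0.444 to 6.14%) of MSA-2 T-like cells. MSA-2 fibroblast-like cells lay between with 12.8% (10.3 to 15.7%), as did endothelial-like with 7.04% (2.33 to 15.7%) and NK-like cells with 6.90% (2.57 to 14.4%). Without thinning these shares were 18.3% and 75.3% in macrophage-like cells, and after MSA-2 79.2% in monocyte-like, 48.4% in fibroblast-like, 27.9% in Col1-low non-immune, 26.4% in NK-like, 19.2% in endothelial-like and 10.6% in T-like cells. Levels of Ifnb1 after MSA-2 were 2530 CPM in monocyte-like, 1125.5 in macrophage-like, 142 in fibroblast-like and 116 in NK-like cells. They were 46.7 CPM in T-like, 32.9 in endothelial-like and 20.8 in Col1-low non-immune cells. How many of the cells with low levels held only Ifnb1 RNA of other cells was not tested. Cells were next split by whether an Ifnb1 UMI was left after thinning, so those called without it include cells with Ifnb1 UMIs before thinning. In macrophage-like cells of both libraries and in MSA-2 monocyte-like cells, those with Ifnb1 held more UMIs of the 8 members together. In MSA-2 macrophage-like cells the means were 15.8 member UMIs in the 718 cells with Ifnb1 and 10.2 in the 694 without it. In MSA-2 monocyte-like cells they were 20.9 (354 cells) and 12.3 (184 cells), and in untreated macrophage-like cells 7.24 (302 cells) and 2.57 (3748 cells). The same direction was found in Col1-low non-immune cells. Their means were 9.18 (177 cells) and 3.22 (6595 cells) after MSA-2, and 4.44 (18 cells) and 0.958 (6117 cells) in untreated tumors. Ifit1 differed by more than Usp18 between these cells: in MSA-2 macrophage-like cells Ifit1 averaged 2.35 UMIs with and 1.30 without Ifnb1, and Usp18 0.252 and 0.241. Not every member was higher with Ifnb1: Usp18 averaged 0.268 with and 0.342 without it in MSA-2 monocyte-like cells. Cmpk2 was nearly equal in MSA-2 macrophage-like cells, at 0.401 and 0.412. It was higher with Ifnb1 in untreated macrophage-like cells (0.096 and 0.038) and in MSA-2 monocyte-like cells (0.763 and 0.478).

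Free RNA was gauged with genes of other classes. In the MSA-2 library S100a9 stood at 218 CPM in Col1-low non-immune cells, 0.433% of its level in neutrophil-like cells, and at the same rate the members of neutrophil-like cells would add 70.8 CPM to the 2755 CPM found. C1qa, a macrophage gene, stood at 2.09% of its macrophage-like level in untreated and at 0.807% in MSA-2 Col1-low non-immune cells. Rhox5, from the Col1-low non-immune cells, stood at 9.93% to 21.1% of its home level in the other 6 classes of the untreated and 11.2% to 27.2% of those of the MSA-2 library. Scaled by C1qa, Rhox5 and Retnlg, a neutrophil gene used in the sum in place of S100a9, RNA of other classes would amount to 4.52% (monocyte-like) to 13.6% (NK-like) of the members' CPM in the 7 compared classes of the MSA-2 library, and to 19.5% in its DC-like and 4.48% in its neutrophil-like cells. In the same 7 classes of the untreated library it would be 4.63% (macrophage-like) to 31.7% (endothelial-like). These ranges rest on the gauges chosen: in MSA-2 monocyte-like cells C1qb would give 3.98% where C1qa gave 1.21%, and Chil3, a monocyte gene not used in the sum, would alone give 9.62% in MSA-2 macrophage-like cells, although both genes may also be made by the cells themselves. Low untreated levels, above all those of endothelial-like and monocyte-like cells, thus hold a larger part that may be free RNA, and its part in the ratios was not tested. The classes are also ranges of marker levels and not closed types. Monocyte-like cells had medians of 23.8 (untreated) and 9.97 (MSA-2) macrophage-marker UMIs per 10000 UMIs, beside 41.4 and 45.2 of their own markers. Up to 25% above the gate's lower limit lay 1.66% and 2.84% of macrophage-like, 4.96% and 2.17% of monocyte-like, 4.59% and 4.01% of Col1-low non-immune and 7.22% and 11.5% of NK-like cells.

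The 8 members rose more than most genes of a wider interferon list. Of 47 listed genes 45 were in the files (Mx1 and Mx2 are not analysed here), and 16 were at least 2-fold higher in Col1-low non-immune cells, 20 in macrophage-like, 23 in monocyte-like, 21 in T-like, 17 of 42 tested in NK-like, 30 in fibroblast-like and 22 of 44 tested in endothelial-like cells. In the same order, the shares of all tested genes were 2.52%, 5.56%, 13.7%, 5.94%, 6.71%, 7.56% and 7.79%. With 10 CPM added the list counts fell to 12, 16, 18, 15, 12, 25 and 21. No listed gene was 2-fold lower, except Tyk2 in endothelial-like cells with 9 and 6 UMIs. Medians of the log2 ratio in Col1-low non-immune cells were 2.07 for the 8 members, 0.74 for the list and 0.03 for all genes, and in macrophage-like cells 2.40, 0.90 and -0.13. Both IFIT relatives rose in these 2 classes: Ifit1bl1 went from 6.34 to 89.6 CPM in macrophage-like cells, and Ifit1bl2 from 1.35 to 5.15 CPM in Col1-low non-immune cells. Single genes of the list are named after their values were seen. Of the 4 genes that attach ISG15 to proteins, the ligases Herc6 and Trim25 rose in both. Herc6 went from 51.2 to 139 CPM in Col1-low non-immune and from 73.1 to 331 CPM in macrophage-like cells.

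Of 24 antiviral effectors on the list, 11 were 2-fold higher in Col1-low non-immune, 14 in macrophage-like and 14 in T-like cells, 16 in monocyte-like and in endothelial-like cells, 12 of 23 tested in NK-like cells and 22 in fibroblast-like cells. The shares of all tested genes in the order of these classes were 2.52%, 5.56%, 5.94%, 13.7%, 7.79%, 6.71% and 7.56%. Medians of the effectors were 0.94 in Col1-low non-immune, 1.11 in macrophage-like and 1.56 in fibroblast-like cells. Ifi44 had a log2 ratio of 2.10 and Oas3, which makes the messenger that activates RNase L, of 1.94 in Col1-low non-immune cells. In macrophage-like cells Ifih1, the RNA sensor MDA5, went from 700.5 to 2308 CPM, and Oasl2 from 171 to 754 CPM. Irf7, a factor that amplifies interferon production, also passed 2-fold in Col1-low non-immune cells (54.7 to 116 CPM) and in macrophage-like cells (277 to 582 CPM). It is 1 of 12 receptor and relay genes on the list. Of these, 1 passed in Col1-low non-immune and 2 in macrophage-like cells, with median log2 ratios of 0.15 and 0.19. None of the 3 feedback genes (Socs1, Socs3 and Usp25) passed 2-fold in either class.

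Across 14 points, the 7 classes in both libraries, the mean log2(CPM + 1) of the 8 members was most like that of Rtp4 (Pearson's r = 0.946 among 15059 genes), followed by Trim30a (0.938), Ifih1 (0.928), S100a9 (0.927), Parp14 (0.927), Rnf213 (0.922), Cxcl10 (0.921), Retnlg (0.916), S100a8 (0.911) and Helz2 (0.905). The 14 points share 2 libraries, so any gene that is higher in 1 library in all classes scores well. S100a9, Retnlg and S100a8 are neutrophil genes whose UMIs rose in the other classes of the MSA-2 library together with its many neutrophil-like cells. Among the members, Isg15 followed the mean of the other 7 most closely (r = 0.984) and Ifit2 least (0.885).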

How the data were processed

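Counts of UMIs per gene and barcode were deposited as raw whole numbers, made by the authors with Cell Ranger and a quality filter of barcodes. The submitters' notes name Cell Ranger 7.0.0, Seurat 4.3.0 and the genome mm10, the file headers Cell Ranger 7.0.1, and the methods still other releases of both programs. The files hold 14386 and 14617 barcodes, the same numbers that the methods call immune cells, and these had medians of 8372 and 8661 UMIs and 2809 and 2918 genes. Barcodes under 500 genes or over 20% mitochondrial UMIs were dropped (347 and 654). Scrublet, with an expected rate of 0.8% per 1000 barcodes, then called 690 (4.91%) and 652 (4.67%) doublets, which were removed; pairs of cells of the same type are not found this way. Of the 53 barcodes found in both libraries (0.368% and 0.363%), 41 and 48 were kept.

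The genes were found by symbol. A cell was gated by UMIs of each marker list per 10000 UMIs, with at least 3 markers of a class present; the thresholds were set after the data were seen. The rule named a tumor class, but its epithelial markers were scarce, so the Col1-low non-immune class took its place. Members and lists were chosen with earlier results of these data known. UMIs were summed by class and library and given as CPM with Poisson intervals, ratios with conditional binomial intervals and shares with Clopper-Pearson intervals, all at 95%. A share of 0 is given with the limit that 3 counts allow. The share of responding cells and the level per responding cell were taken after thinning each cell to 1000 UMIs. Where both libraries of a class together held at least 10 UMIs of a gene, it was compared as a log2 ratio with 1 CPM added. Tested on simulated data, the steps gave the right direction for 200 of 200 changed genes, and 11183 of 11700 intervals of unchanged genes held 0. The simulated class sums were drawn as Poisson counts, as the intervals assume, without the wider spread between real cells. This cannot show how the intervals hold under that spread.

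Alternatives tried were a stricter filter, doublets kept, TMM factors, equal weight per cell, a stricter gate, clusters in place of gates, other thinning depths, other definitions of responding, and sums without Isg15 or Ifit3b. Counts of genes at least 2-fold higher were repeated with at least 50 UMIs required and with 10 CPM added. Python 3.11.15 with numpy 2.4.6, pandas 2.3.3, scipy 1.17.1, scanpy 1.11.5 and matplotlib 3.10.9 was used, and R 4.3.3 with edgeR 4.0.16 for the TMM factors.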

Additional observations from a re-analysis of the deposited data

How the results depend on the processing

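In the alternatives, 63 values of the summed level, 74 of the share and 74 of the level per responding cell were all above 0. The interval held 0 in 3 of them: the level in NK-like cells for at least 2 UMIs, 0.15 (-0.15 to 0.45), and for at least 2 members, 0.13 (-0.18 to 0.46), and the share in endothelial-like cells without thinning, 0.19 (-0.02 to 0.42). The split into share and level belongs to the thinning depth, and values follow as log2 ratios, MSA-2 over untreated. Summed level over all cells (1.90): stricter filter 1.80, doublets kept 1.89, TMM 1.89, equal weight per cell 2.31, without Isg15 2.12, without Ifit3b 1.89. Col1-low non-immune (1.83) and macrophage-like (2.12): doublets kept 1.84 and 2.16, TMM 1.75 and 2.21, equal weight 1.79 and 2.18, stricter gate 1.77 and 2.06, clusters 1.81 and 2.32, without Isg15 2.14 and 2.21. For the same classes, the share (0.93 and 0.54) was 1.20 and 0.86 at 500 UMIs, 0.62 and 0.33 at 2000, 0.25 and 0.12 at 5000, and 0.024 and 0.13 without thinning. It was 1.71 and 1.01 for at least 2 UMIs, 1.87 and 1.252 for at least 2 members, and 1.29 and 0.73 without Isg15. The level (0.87 and 1.62) was 0.67 and 1.34 at 500 UMIs, 1.17 and 1.88 at 2000, 1.53 and 1.84 at 5000, and 1.82 and 1.76 without thinning. It was 0.42 and 1.246 for at least 2 UMIs, 0.37 and 1.13 for at least 2 members, 0.83 and 1.83 in clusters, 0.82 and 1.52 without Isg15, and 1.56 for macrophage-like cells under the stricter gate. The depth of 5000 UMIs and a monocyte gate without its limit on Col3a1, Dcn and Serpinf1 were added after the data were seen; this gate gave 1.81 in Col1-low non-immune and 2.93 in monocyte-like cells. With 10 CPM added, the genes at least 2-fold higher fell from 497 to 164 in Col1-low non-immune and from 833 to 329 in macrophage-like cells. In monocyte-like cells they fell from 1390 to 643, which is from 13.7% to 6.34% of all tested genes. No paired analysis was possible because each group is 1 pooled library, so differences between mice, injections and libraries cannot be told apart from the effect of MSA-2.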
